A study of Homo sapiens with 12 samples.

Results

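Imprinted genes are genes of which a single parental copy is expressed in at least some tissues. The choice between the copies is set by DNA methylation that is laid down in the germ line at control regions, and most imprinted genes lie in clusters that share such a region. Non-coding RNAs of the clusters, such as H19 and KCNQ1OT1, are usually expressed from the parental copy on which their neighbours are silent. Many of the proteins act in fetal growth, and several belong to the insulin-like growth factor axis.

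A list of 38 imprinted coding and non-coding genes was followed here, 30 of them in 11 named loci and 8 given as single genes. They were chosen by name from knowledge of imprinting, but with earlier results of these data known. They were matched by Ensembl ID, among the 60660 IDs of the deposited counts. An ID of its own was found for 37. NESP55, a transcript of the GNAS locus, has no gene of its own in the annotation and was read as part of GNAS. Not every listed gene has a settled imprint in every human tissue. The list gives the parental copy as not clear in human for COPG2 and RB1CC1, and as polymorphic in human for IGF2R. For UBE3A it gives the maternal copy in neurons, and for ATP10A the maternal copy in some tissues. The counts carry no information on alleles, so which parental copy gave the reads was not measured, and fewer cells expressing a gene and less RNA per cell cannot be told apart in such bulk samples.

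The samples were 12 RNA-seq libraries of HEK293T, a human embryonic kidney line that carries the SV40 large T antigen, transfected with a control siRNA (siCTL) or with an siRNA against CARM1, CHD4, HDAC2, GATAD2A or KDM1A, 2 libraries per group. CARM1 is an arginine methyltransferase, and the study asked about its link to the NuRD complex, of which CHD4 is the remodelling ATPase, HDAC2 a deacetylase, GATAD2A a zinc-finger subunit and KDM1A an associated histone demethylase. The labels name this line, whereas the methods text of the study speaks of HEK293, the parent line without that antigen, and which of them was used cannot be told from the sources used here. All groups share the line and the transfection, and siCTL serves as the control of all 5 comparisons. Nothing says that the 2 libraries of a group came from separate cultures, so p-values measure only the spread between these libraries, which may be technical.

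Totals on genes lay between 19308315 and 28648657 counts per library, and the 2 libraries of every group differed by more than counting noise. The transcript of each targeted gene was lower in its own group: 19.2% of the siCTL level was left for CARM1, 19.3% for HDAC2, 29.3% for GATAD2A and 16.4% for KDM1A, but 68.4% for CHD4. Of the markers of the HEK293 line, VIM, KRT8, KRT18, NEFL and STMN1 were at 28.1 FPKM or more in every library, LHX1 ran from 2.57 to 4.18 FPKM and EYA1 from 0.394 to 0.876 FPKM, while NEFM, INA, TUBB3 and PAX2 stayed at 1.25 FPKM or less in every library. FPKM, the unit for levels between genes, scales a count to the exonic length of its gene and to the library total. PTPRC, ALB, DCN, HBB and CD3E, markers of blood, liver and stroma, did not pass 0.165 FPKM in a library, GFAP and ESR1 did not pass 0.423 FPKM, and COL1A1 reached 13.96 FPKM and ACTA2 4.25 FPKM at most. PECAM1 was not used here.

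Promoters of 5 loci with results below are printed as a selection. GRB10 and UBE3A, which also carry results below, had entries too but are not printed. PHLDA2, SLC22A18 and KCNQ1OT1 had no entry. Each window shows the 250 bases before the transcription start in the RefSeq table on GRCh38.p14, 5′ to 3′ on the strand of the gene. Every CpG dinucleotide is in capitals, since methylation of CpG is what an imprint consists of. The window of MKRN3 is chr15:23565424-23565673 on the plus strand, that of H19 chr11:2001267-2001516 on the minus strand and that of HYMAI chr6:144008260-144008509 on the minus strand. The HYMAI window is also 1 of the 5 promoters listed for PLAGL1. The window of IGF2R is chr6:159968832-159969081 on the plus strand, and that of the upstream promoter of TP73 is chr1:3652266-3652515 on the plus strand.
MKRN3: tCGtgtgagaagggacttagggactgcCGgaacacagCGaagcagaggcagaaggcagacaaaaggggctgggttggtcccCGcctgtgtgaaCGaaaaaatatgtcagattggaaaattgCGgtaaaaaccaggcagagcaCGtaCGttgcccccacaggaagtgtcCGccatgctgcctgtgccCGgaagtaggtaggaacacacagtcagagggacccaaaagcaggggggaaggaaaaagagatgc
H19: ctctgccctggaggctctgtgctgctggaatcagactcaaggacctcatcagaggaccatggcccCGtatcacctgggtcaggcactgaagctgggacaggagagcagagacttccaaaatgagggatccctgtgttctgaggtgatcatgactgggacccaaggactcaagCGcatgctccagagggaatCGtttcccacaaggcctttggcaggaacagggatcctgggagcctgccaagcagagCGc
HYMAI and PLAGL1: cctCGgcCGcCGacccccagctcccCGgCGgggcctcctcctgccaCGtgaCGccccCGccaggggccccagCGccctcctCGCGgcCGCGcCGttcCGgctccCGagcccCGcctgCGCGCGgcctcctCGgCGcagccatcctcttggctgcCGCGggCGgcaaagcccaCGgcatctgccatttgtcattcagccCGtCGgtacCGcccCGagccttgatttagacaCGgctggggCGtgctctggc
IGF2R: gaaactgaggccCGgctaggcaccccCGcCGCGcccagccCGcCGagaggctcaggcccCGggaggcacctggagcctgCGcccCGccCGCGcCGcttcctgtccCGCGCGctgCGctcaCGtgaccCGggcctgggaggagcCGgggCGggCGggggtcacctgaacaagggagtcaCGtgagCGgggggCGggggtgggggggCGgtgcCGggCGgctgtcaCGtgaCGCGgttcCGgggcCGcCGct
TP73: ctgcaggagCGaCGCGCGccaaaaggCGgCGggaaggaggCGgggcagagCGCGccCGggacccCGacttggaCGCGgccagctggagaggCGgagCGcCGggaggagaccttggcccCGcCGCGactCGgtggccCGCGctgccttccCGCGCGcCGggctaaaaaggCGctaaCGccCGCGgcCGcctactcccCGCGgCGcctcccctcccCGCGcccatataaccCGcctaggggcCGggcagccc
The windows differed in their CpG content. TP73 held 38 CpG, IGF2R 33, HYMAI 32, MKRN3 10 and H19 only 4, against a median of 11 over all 34943 windows of this length. As many CpG as in TP73 were found in 3.29% of all windows, as many as in MKRN3 in 52.1% and as many as in H19 in 70.6%. Whether transcripts in these cells start at the printed windows, that of H19 included, was not tested. The hexamer TGCCGC, which the imprint-keeping factor ZFP57 is known to bind when methylated, was searched on both strands and occurred 2 times in the HYMAI and PLAGL1 window and in none of the other 4, and 12.7% of all windows held it. The octamer CCGGAAGT, an ETS-type motif, occurred 1 time in the MKRN3 window and in 3.39% of all windows. TCACGTGA, an E-box extended by a base on each side, occurred 3 times in the IGF2R window and in 0.856% of all windows. These are matches of letters and say nothing of binding.

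A gene was called expressed at more than 0.5 FPKM in the mean of at least 1 group. By this measure 19 of the 37 genes were expressed and 18 were not. The levels of the expressed members, as means over the 12 libraries, ran from 0.801 FPKM for H19 to 40.3 FPKM for COPG2, a coatomer subunit, and 40.0 FPKM for GNAS, the stimulatory G protein alpha subunit. Between these lay IGF2R at 22.1 FPKM, RB1CC1 at 14.6 FPKM, BLCAP at 8.82 FPKM, TP73 at 8.65 FPKM and GRB10 at 8.21 FPKM. The group means of these last 3 overlapped, running from 7.68 to 9.91 FPKM for BLCAP, 5.74 to 11.6 FPKM for TP73 and 5.57 to 9.83 FPKM for GRB10, so their order is not firm. The place of COPG2 rests on its exonic length in the annotation, 1722 bases. Its 19671 counts over all libraries were close to the 19708 of BLCAP, whose exonic length is 7869 bases. Whether the annotated length of COPG2 is complete was not tested.

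The loci differed in whether they were transcribed at all. The 4 listed genes of the KCNQ1 domain at 11p15.5 were all expressed, from 1.18 FPKM for the long non-coding RNA KCNQ1OT1 to 6.98 FPKM for PHLDA2, which restrains placental growth. PEG10 and SGCE at 7q21.3, which are expressed from the paternal copy, were both expressed, at 1.08 and 1.27 FPKM. None of the 4 genes of the DLK1-MEG3 locus at 14q32 was expressed, and the highest mean among them was 0.00314 FPKM for RTL1. The pair PEG3 and ZIM2 at 19q13.43 was equally low, with at most 2 counts in a library for PEG3 and none for ZIM2. These 2 loci were the only ones of the 11 with no expressed member.

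The other loci were split. At 15q11-q13, UBE3A, the ubiquitin ligase whose loss from the maternal copy causes Angelman syndrome, stood at 6.34 FPKM, while the 6 listed neighbours, NDN, MAGEL2, MKRN3, SNRPN, SNURF and ATP10A, were below 0.5 FPKM in every group mean. SNRPN and SNURF, the genes at the imprinting centre, were at 0 in all 12 libraries. They share 43.9% and 52.1% of their exonic bases with other genes of the same strand, and read pairs in shared exons are not counted for either gene. NDN had 1 count in all 12 libraries together. At 7q32.2, COPG2 was expressed and MEST was nearly silent, with 15 counts in all. At 20q11, BLCAP was expressed and NNAT had 11 counts in all. At 6q24, PLAGL1, a zinc-finger transcription factor, stood at 4.29 FPKM and its non-coding neighbour HYMAI at 0.252 FPKM. H19 was expressed and IGF2, the fetal growth factor beside it, was not, at 0.0367 FPKM. IGF2 shares 43.2% of its exonic bases with other genes of the same strand, and the gene that shares the most of them had at most 1 count in a library. Pairs in the shared exons are counted for neither gene, so that low count does not show that no reads of IGF2 were lost. Among the single genes, L3MBTL1, IGF2R, INPP5F, TP73, RB1CC1 and WT1 were expressed, and DIRAS3 and NAP1L5 were not.

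Strand bears on the silent genes. NNAT lies inside BLCAP on the opposite strand, and pairs counted on both strands together gave NNAT 1020 counts, against 11 on its own strand. Counted that way NNAT passed 0.5 FPKM. The opposite strand of MEST, which faces COPG2 and non-coding genes, likewise held 1269 counts. On their own strand neither gene was expressed. H19 went the other way, with 429 counts over both strands together and 778 on its own strand. The cause of this loss was not tested.

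The comparison with siCTL asks which of these genes respond when CARM1 or a NuRD subunit is depleted. Calls needed a p of at most 0.05 in edgeR's quasi-likelihood test, after Benjamini-Hochberg adjustment over all genes, together with a 1.2-fold change or more. Of the 37 genes, 23 passed the filter on low counts and 14 did not, all 14 with 9 counts or fewer in every library. IGF2 and MKRN3 passed only through siCHD4, the group in which they were highest, so their call there is partly built into the filter. Of the 20156 genes tested in the series, 61.5% were called in at least 1 comparison and 35.1% in at least 2. Of the 23 imprinted genes, 20 were called in at least 1 comparison and 10 in at least 2. GRB10, UBE3A and TP73 were called in all 5. The share of all genes called in all 5 was not taken, so whether 3 of 23 is many cannot be told. KCNQ1, MAGEL2 and GNAS were called in none.

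Among the 23, 5 were higher and 3 lower with siCARM1, where 12% and 11% of all genes were. With siCHD4, 9 were higher and 3 lower, where 20.4% and 19.8% of all genes were. With siHDAC2, 6 were higher and 3 lower, where 8.64% and 7.73% of all genes were, and without siCTL replicate 2 only 3 were higher. With siGATAD2A, 6 were higher and 3 lower, where 12.7% and 14.4% of all genes were. With siKDM1A, 3 were higher and 3 lower, where 11.3% and 9.48% of all genes were. The median log2 fold change of the 23 was 0.09, 0.13, 0.11, -0.11 and 0.10 in this order, against 0.02, 0.01, 0.01, 0.01 and 0.01 for all genes. The share of the 23 called lower was thus 13.04% in each comparison, and the share called higher ran from 13.04% with siKDM1A to 39.1% with siCHD4. The members higher with siCHD4 include IGF2 and MKRN3, which passed the filter on low counts only through that group. The share of 39.1% is thus partly built into the filter.

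**Figure D1:**
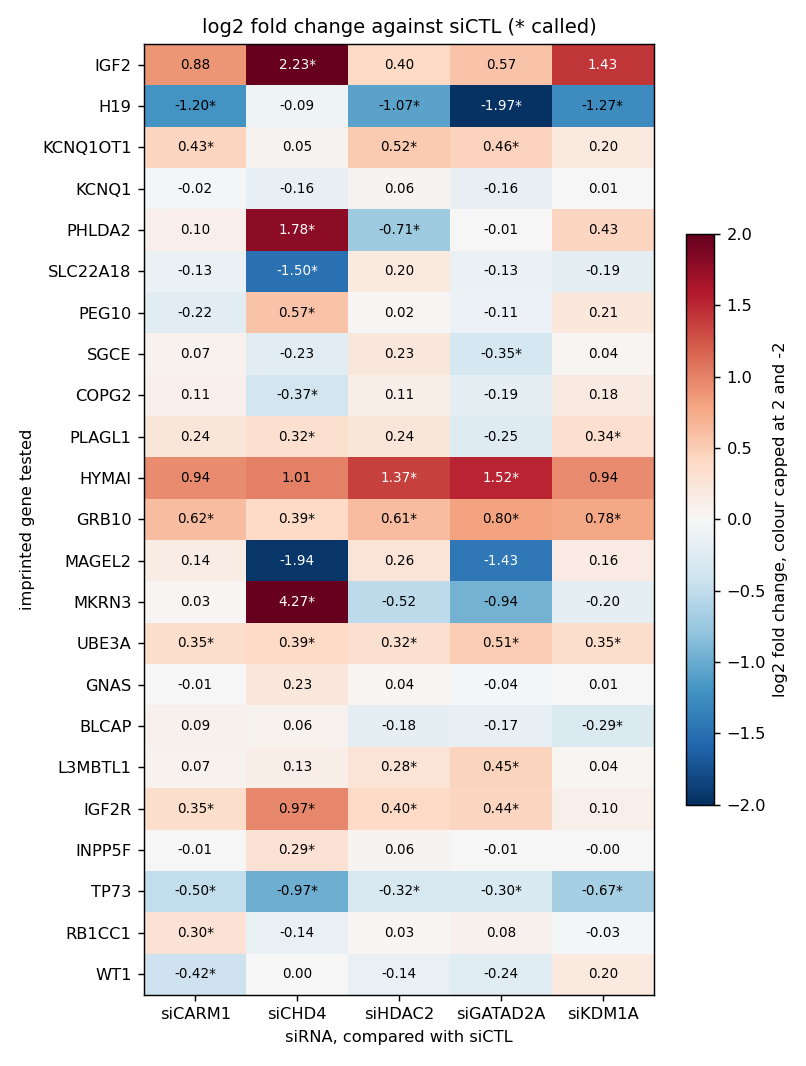
log2 fold change against siCTL (columns, siRNA) of the 23 imprinted genes tested (rows, by locus), with an asterisk where the change was called; colour is capped at 2 and -2. H19 is low in every column but siCHD4, GRB10 and UBE3A are high and TP73 low in all 5, and the largest value, 4.27, is that of MKRN3 with siCHD4. The uncalled values of MAGEL2 rest on 1 to 16 counts per library.

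H19 was lower in 4 of the 5 knockdowns. H19 is a maternally expressed long non-coding RNA and the host of miR-675, a microRNA that was not measured here. In CPM, counts scaled to library size with TMM factors and not to gene length, H19 stood at 4.46 and 5.05 in the siCTL libraries. It stood at 2.5 and 1.57 with siCARM1, 2.36 and 2.20 with siHDAC2, 1.36 and 1.05 with siGATAD2A, and 1.83 and 2.12 with siKDM1A. All 8 of these libraries lay below both siCTL libraries. With siCHD4 it stood at 4.0 and 4.93, which overlaps siCTL. The log2 fold changes were -1.20 ± 0.21 (SE) with siCARM1, -1.07 ± 0.21 with siHDAC2, -1.97 ± 0.24 with siGATAD2A and -1.27 ± 0.22 with siKDM1A, with adjusted p of 1.7e-05, 0.00014, 3.9e-09 and 1.0e-05 in edgeR's test. With siCHD4 the value was -0.09 ± 0.19, with an adjusted p of 0.72. Between knockdowns, siCHD4 differed from each of the other 4, by 0.97 to 1.88 on the log2 scale, and siGATAD2A was lower than siCARM1, siHDAC2 and siKDM1A. The counts behind these values ran from 25 to 120 per library.

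In the KCNQ1 domain the listed genes did not move together in any comparison. KCNQ1OT1, whose paternal transcript runs antisense through KCNQ1, stood at 86.6 and 92.0 CPM with siCTL. It reached 121.0 and 120.2 CPM with siCARM1, 127.6 and 129.1 CPM with siHDAC2, and 123.8 and 121.8 CPM with siGATAD2A, all above both controls. It stood at 93.3 and 91.7 CPM with siCHD4 and 101.9 and 103.2 CPM with siKDM1A. The called log2 fold changes were 0.43 ± 0.05, 0.52 ± 0.05 and 0.46 ± 0.05. With siKDM1A the change of 0.20 ± 0.05 had an adjusted p of 0.0016 but missed the fold minimum. KCNQ1, the potassium channel gene on the other strand, was called in none, with values from -0.16 to 0.06.

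**Figure D2:**
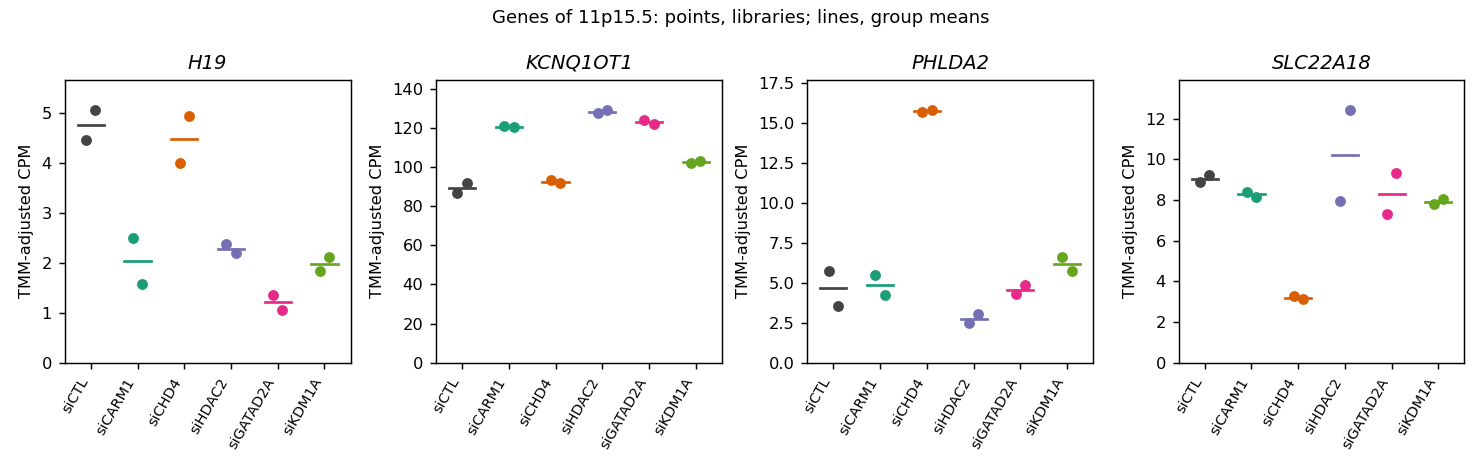
TMM-adjusted CPM of 4 genes of 11p15.5 in the 12 libraries (points) with group means (lines), each panel from 0. H19 is low in all groups but siCTL and siCHD4, KCNQ1OT1 is high with siCARM1, siHDAC2 and siGATAD2A, and siCHD4 stands apart upward in PHLDA2 and downward in SLC22A18.

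PHLDA2 and SLC22A18, neighbours that are both expressed from the maternal copy, went opposite ways with siCHD4. PHLDA2 stood at 5.74 and 3.58 CPM with siCTL and at 15.74 and 15.83 CPM with siCHD4. It stood at 2.51 and 3.02 CPM with siHDAC2, below both controls, at 5.48 and 4.25 CPM with siCARM1, 4.31 and 4.85 CPM with siGATAD2A, and 6.64 and 5.76 CPM with siKDM1A. The rise with siCHD4 was 1.78 ± 0.15 on the log2 scale, a fold of 3.44. The fall with siHDAC2 of -0.71 ± 0.20 rested on single libraries: it was -0.36 with an adjusted p of 0.31 without siCTL replicate 1 and -0.61 with an adjusted p of 0.051 without siHDAC2 replicate 1. SLC22A18, an organic cation transporter, stood at 9.04 ± 0.24 CPM (SD, n = 2) with siCTL and at 3.20 ± 0.11 CPM with siCHD4, a log2 fold change of -1.50 ± 0.17. In the other groups its means lay between 7.93 and 10.2 CPM. Both genes with siCHD4 also differed from each of the other 4 knockdowns, with log2 differences of 1.35 to 2.49 for PHLDA2 and -1.70 to -1.31 for SLC22A18.

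MKRN3, at 15q11-q13, had the largest change of any member. It encodes a RING finger protein that restrains the onset of puberty and is expressed from the paternal copy. It had 2 and 3 counts in the siCTL libraries and 46 and 71 counts in the siCHD4 libraries. In the other 8 libraries it had 1 to 5 counts. The summed counts of siCHD4 and siCTL gave a ratio of 20.1, with a 95% interval of 8.39 to 63.2 from the exact binomial test, which covers counting error only. The fitted log2 fold change was 4.27 ± 0.59, with an adjusted p of 4.7e-08. Both siCHD4 libraries also stood above every other knockdown, with log2 differences of 4.24 to 5.21. As MKRN3 passed the filter on low counts only through siCHD4, these values are partly built into the filter. At its highest MKRN3 reached a group mean of 0.332 FPKM, below the threshold for expression. Its exons share 25.2% of their bases with a non-coding gene of the opposite strand that had no counts. Its neighbour MAGEL2 did not follow: it had 2 counts in each siCHD4 library and 3 and 11 in siCTL, an uncalled value of -1.94 ± 0.90 with an adjusted p of 0.070. NDN, SNRPN and SNURF stayed at 0 counts with siCHD4. Pairs in the exons that SNRPN and SNURF share with other genes of the same strand are not counted. Their 0 counts therefore cannot show whether they responded.

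IGF2 had 1 and 4 counts with siCTL and 11 and 17 with siCHD4, a ratio of 4.82 with a 95% interval of 1.84 to 16.0. Its call with siCHD4, 2.23 ± 0.77 on the log2 scale, was lost with DESeq2 (2.29, adjusted p = 0.058) and in edgeR's fit without siCTL replicate 1 (adjusted p = 0.15) and without siCHD4 replicate 2 (adjusted p = 0.12). With each library left out in turn the value ran from 1.67 to 3.33. In the other groups it had 0 to 8 counts per library. IGF2 too passed the filter on low counts only through siCHD4.

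HYMAI and PLAGL1 share the promoter window printed above and overlap in 8.64% of the exonic bases of HYMAI. HYMAI had 7 and 10 counts with siCTL, 22 and 17 with siCARM1, 13 and 27 with siCHD4, 15 and 38 with siHDAC2, 37 and 22 with siGATAD2A, and 20 and 18 with siKDM1A. In CPM all 10 knockdown libraries lay above both siCTL libraries. It was called with siHDAC2, at 1.37 ± 0.46, and with siGATAD2A, at 1.52 ± 0.45. Both calls rested on single libraries: with siHDAC2 the adjusted p was 0.13 and 0.091 without siCTL replicates 1 and 2 and 0.39 without siHDAC2 replicate 2, where the value was 0.83. With siGATAD2A the adjusted p was 0.057 without siCTL replicate 1 and 0.13 without siGATAD2A replicate 1. PLAGL1 stood at 23.8 and 25.3 CPM with siCTL, 31.1 and 30.3 CPM with siCHD4 and 30.4 and 31.9 CPM with siKDM1A. It stood at 28.3 and 29.7 CPM with siCARM1, 29.6 and 28.6 CPM with siHDAC2 and only 19.8 and 21.4 CPM with siGATAD2A, below both controls. PLAGL1 was called higher with siCHD4, at 0.32 ± 0.08, and siKDM1A, at 0.34 ± 0.08. With siGATAD2A it was lower than in each of the other 4 knockdowns, by log2 differences of 0.49 to 0.60, and HYMAI did not differ among the 5 knockdowns (adjusted p = 0.47 in edgeR's F test).

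GRB10, an adaptor that inhibits the insulin and IGF1 receptors, was higher in all 5 knockdowns. It stood at 54.9 and 54.4 CPM with siCTL, 83.3 and 85.1 CPM with siCARM1, 72.4 and 70.8 CPM with siCHD4, 81.8 and 84.9 CPM with siHDAC2, 95.9 and 94.7 CPM with siGATAD2A, and 94.5 and 92.6 CPM with siKDM1A. The lowest knockdown library stood well above both controls. The log2 fold changes ran from 0.39 ± 0.05 with siCHD4 to 0.80 ± 0.05 with siGATAD2A, and siCHD4 was lower than siGATAD2A and siKDM1A by 0.41 and 0.39. GRB10 is imprinted by isoform, and the counts do not separate its isoforms.

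UBE3A was also higher in all 5. It stood at 101.6 and 91.0 CPM with siCTL, 119.8 and 124.9 CPM with siCARM1, 127.1 and 125.4 CPM with siCHD4, 120.7 and 119.9 CPM with siHDAC2, 136.3 and 136.6 CPM with siGATAD2A, and 118.2 and 127.1 CPM with siKDM1A. All 10 knockdown libraries exceeded both controls, by log2 fold changes of 0.32 to 0.51. Without siCTL replicate 2 the values with siCARM1 and siHDAC2 were 0.25 and 0.24 and missed the fold minimum. SNHG14, the antisense RNA that silences the paternal copy of UBE3A in neurons and covers 9.57% of its exonic bases, had 0 to 9 counts per library. No pair of knockdowns passed both criteria for UBE3A. As the 5 comparisons share the 2 siCTL libraries, a gene called in all of them rests on those same 2 libraries each time.

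**Figure D3:**
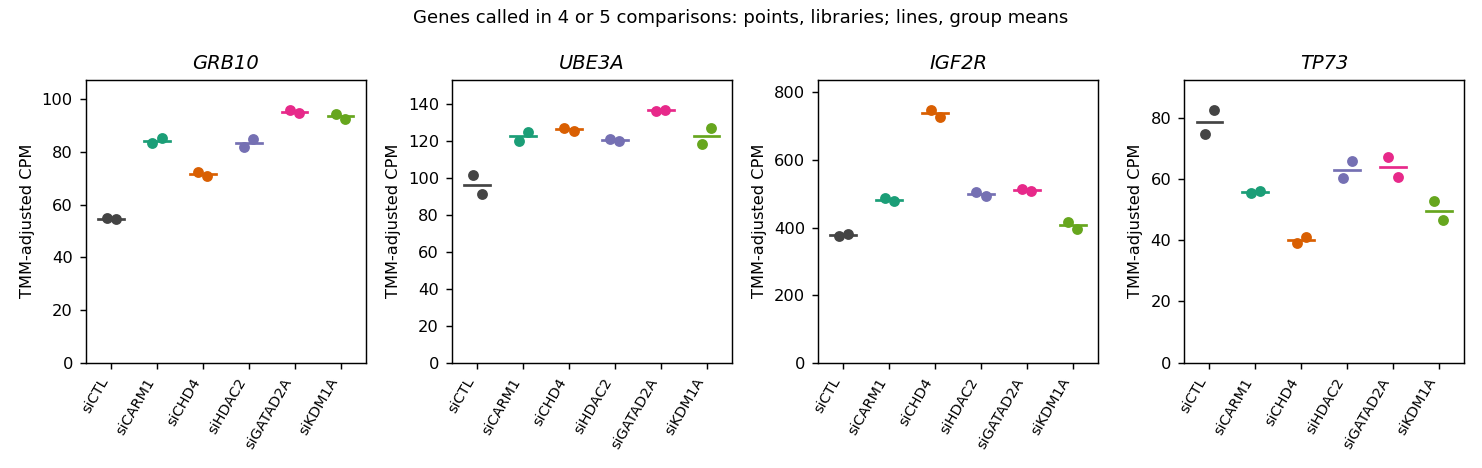
TMM-adjusted CPM of 4 genes called in 4 or 5 comparisons in the 12 libraries (points) with group means (lines), each panel from 0. GRB10 and UBE3A lie above siCTL and TP73 below it in all 10 knockdown libraries, and IGF2R and TP73 are most changed with siCHD4.

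IGF2R, the receptor that clears IGF2 and sorts lysosomal enzymes, was called higher in 4 of the 5. It stood at 375.5 and 380.2 CPM with siCTL and at 748.0 and 728.0 CPM with siCHD4, a fold of 1.95. It stood at 487.2 and 477.3 CPM with siCARM1, 504.9 and 494.9 CPM with siHDAC2 and 513.7 and 508.7 CPM with siGATAD2A. With siKDM1A it stood at 417.7 and 395.0 CPM, a log2 fold change of 0.10 ± 0.04 that missed the fold minimum. The value with siCHD4, 0.97 ± 0.04, exceeded that of each other knockdown by 0.53 to 0.86 on the log2 scale. IGF2R had at least 7072 counts in every library, so counting error was small for it.

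TP73, a p53 family transcription factor, was lower in all 5. It stood at 74.6 and 82.5 CPM with siCTL, 55.5 and 56.1 CPM with siCARM1, 39.2 and 40.9 CPM with siCHD4, 60.3 and 65.9 CPM with siHDAC2, 67.2 and 60.5 CPM with siGATAD2A, and 52.7 and 46.6 CPM with siKDM1A. No knockdown library overlapped siCTL. The log2 fold change was -0.97 ± 0.07 with siCHD4, -0.67 ± 0.07 with siKDM1A and -0.50 ± 0.06 with siCARM1. The values with siHDAC2, -0.32 ± 0.06, and siGATAD2A, -0.30 ± 0.06, shrank to -0.25 and -0.23 without siCTL replicate 2, and that with siGATAD2A to -0.23 without siGATAD2A replicate 2, where the fold minimum was missed. siCHD4 was lower than each of the other 4 knockdowns. An antisense gene, TP73-AS1, faces 9.35% of the exonic bases of TP73 and had 2449 to 3915 counts per library. The opposite strand of TP73 was counted separately.

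L3MBTL1, a reader of methylated histone lysines expressed from the paternal copy, stood at 14.9 and 15.6 CPM with siCTL. It stood at 20.45 and 21.31 CPM with siGATAD2A, where it was called at 0.45 ± 0.10, and at 17.2 and 19.6 CPM with siHDAC2. It stood at 15.8 and 16.4 CPM with siCARM1, 17.4 and 16.0 CPM with siCHD4, and 15.6 and 15.8 CPM with siKDM1A. The call with siHDAC2, 0.28 ± 0.10 with an adjusted p of 0.035 in edgeR's test, was lost with DESeq2 (adjusted p = 0.084), with no filter on low counts (adjusted p = 0.064), without either siCTL library (adjusted p = 0.19 and 0.097) and without siHDAC2 replicate 2 (adjusted p = 0.40). L3MBTL1 shares 21.7% of its exonic bases with a gene of the same strand that had no counts, and pairs in the shared exons are counted for neither gene.

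Members called in a single comparison are given by group. PEG10, a retrotransposon-derived gene, rose with siCHD4 from 6.81 ± 0.96 to 10.05 ± 0.74 CPM (SD, n = 2), a log2 fold change of 0.57 ± 0.14. SGCE, its head-to-head neighbour that encodes epsilon-sarcoglycan, was called with siGATAD2A only, at -0.35 ± 0.09, and this call was lost without siGATAD2A replicate 1 (-0.25, adjusted p = 0.066). COPG2 fell with siCHD4 by 0.37 ± 0.06. BLCAP fell with siKDM1A by 0.29 ± 0.05. INPP5F, an inositol phosphatase, was called with siCHD4 at 0.29 ± 0.07, and 4 alternatives brought it under a threshold, with values of 0.21 to 0.25: both strands counted together, no filter, and leaving out siCTL replicate 2 or siCHD4 replicate 1. RB1CC1, an autophagy scaffold, was higher with siCARM1, at 0.30 ± 0.05, and without siCTL replicate 2 the value of 0.25 missed the fold minimum. WT1, a zinc-finger transcription factor, was lower with siCARM1, at -0.42 ± 0.09. GNAS had the most reads of the list, with 16215 to 24586 counts per library, and its largest change, 0.23 ± 0.04 with siCHD4, had an adjusted p of 1.2e-06 but missed the fold minimum.

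Whether the knockdowns differed from each other was tested without siCTL in any contrast. In edgeR's F test 20 of the 23 imprinted genes differed among the 5 knockdowns, where 69.5% of all genes did. IGF2, KCNQ1 and HYMAI were the 3 that did not pass. Over the 10 pairs of knockdowns, 84 of 230 differences between a pair in a member were called, where 27.4% were over all genes. Pairs with siCHD4 held the most. They had 14 members called against siCARM1, 14 against siGATAD2A, and 12 against each of siHDAC2 and siKDM1A. The share over all genes was not taken for each pair. Against siCTL, siCHD4 also had the largest shares of all genes called, 20.4% higher and 19.8% lower. The order of the pairs therefore cannot be read as a trait of imprinted genes. Without siCHD4, the pair with the most calls was siGATAD2A and siKDM1A, with 9. MAGEL2 was lower with siCHD4 than with siCARM1, siHDAC2 and siKDM1A, by differences of 2.09 to 2.20 on the log2 scale that rest on 2 counts in each siCHD4 library.

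By locus, 5 loci had 2 or more tested members, which gives 25 combinations of a locus and a comparison. In 1 of the 25, 2 members were called the same way, in 2 they were called in opposite ways, in 17 a single member was called and in 5 none was. The same way were MKRN3 and UBE3A at 15q11-q13 with siCHD4, and opposite ways PHLDA2 and SLC22A18 with siCHD4 and KCNQ1OT1 and PHLDA2 with siHDAC2. MKRN3 passed the filter on low counts only through siCHD4, and the fall of PHLDA2 with siHDAC2 rested on single libraries. Of all genes, 20.4% were higher and 19.8% lower with siCHD4, and 8.64% and 7.73% with siHDAC2. Counts by locus were not made for other neighbouring genes, so those given here cannot be read as a trait of imprinted loci. With siGATAD2A the tested genes of 15q11-q13 spanned -1.43 to 0.51. The pair IGF2 and H19, which compete for enhancers and are expressed from opposite parental copies, had values of opposite sign in all 5 comparisons, which share the siCTL libraries. They ran from 0.40 to 2.23 for IGF2 and from -1.97 to -0.09 for H19, but only in siCHD4 was IGF2 called, and there H19 was not. In the other knockdowns IGF2 had 0 to 8 counts per library. With siHDAC2 and siGATAD2A its libraries overlapped those of siCTL, so the sign of IGF2 outside siCHD4 is not firm.

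Genes that set or keep imprints were read from a separate list of 30, of which 24 were tested. Higher and lower were 4 and 5 of them with siCHD4 (20.4% and 19.8% of all genes), 4 and 3 with siGATAD2A (12.7% and 14.4%), 3 and 1 with siCARM1 (12% and 11%), 2 and 0 with siKDM1A (11.3% and 9.48%), and 1 and 0 with siHDAC2 (8.64% and 7.73%). Their median log2 fold change lay between -0.01 and 0.06. CTCFL, the germ-cell paralogue of the insulator protein CTCF, was higher in all 5, on the log2 scale most with siCHD4, by 5.88 ± 0.23, then with siGATAD2A, by 3.57 ± 0.30, siHDAC2, by 2.33 ± 0.36, siKDM1A, by 2.0 ± 0.37, and siCARM1, by 1.33 ± 0.41. It had 20 counts in the siCTL libraries together and 1386 in those of siCHD4. The call with siCARM1 was lost in edgeR's fit without siCTL replicate 1 (adjusted p = 0.078) and without siCARM1 replicate 2 (adjusted p = 0.079). DNMT3A, the methyltransferase that lays down germ-line imprints, was lower with siCHD4, at -0.77 ± 0.06, siCARM1, at -0.41 ± 0.06, and siGATAD2A, at -0.34 ± 0.06. TET2, which oxidises methylated cytosine, was called with siCHD4 only, at -0.78 ± 0.08. NLRP2, a maternal-effect gene, had 7 counts in the siCTL libraries together and 138 in those of siCHD4, a ratio of 17.0 with a 95% counting interval of 8.02 to 43.0. It stood at 0.0381 FPKM or less in the other groups and passed the filter on low counts through siCHD4, so its call there is partly built into the filter. CBX5, a heterochromatin protein, was lower with siGATAD2A, at -0.53 ± 0.04, and siCHD4, at -0.30 ± 0.04. The part of these genes in the changes of the imprinted members was not tested.

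Partners of the IGF axis were a list of 16, of which 14 were tested. Higher and lower were 6 and 0 with siCARM1 (12% and 11% of all genes), 5 and 4 with siCHD4 (20.4% and 19.8%), 3 and 1 with siHDAC2 (8.64% and 7.73%), 3 and 5 with siGATAD2A (12.7% and 14.4%), and 0 and 1 with siKDM1A (11.3% and 9.48%), with medians between -0.11 and 0.13. IGFBP4, a binding protein that sequesters IGFs, rose by 2.36 ± 0.13 on the log2 scale with siCHD4, 0.90 ± 0.15 with siCARM1 and 0.78 ± 0.15 with siHDAC2. IGFBP3 rose by 1.58 ± 0.14 with siCHD4 and 1.01 ± 0.14 with siCARM1. IGFBP5 was lower with siCHD4, at -1.27 ± 0.11, and siGATAD2A, at -0.61 ± 0.10, and higher with siCARM1, at 0.93 ± 0.09, and siHDAC2, at 0.68 ± 0.09. IGFBP7 was lower with siGATAD2A, at -1.19 ± 0.06, and siCHD4, at -0.78 ± 0.06. It was called higher with siCARM1, at 0.31 ± 0.05, and this was lost with both strands counted together (0.18) and, on the fold minimum, without siCTL replicate 2 or siCARM1 replicate 1 (0.23 each). IGFBP6 was lower with siGATAD2A, at -1.21 ± 0.19, and siHDAC2, at -0.96 ± 0.19.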

How the data were processed

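The members and the gene lists were chosen with earlier results of these data known. Total RNA was made into directional paired-end libraries. For each library the authors deposited counts per Ensembl gene that are neither normalized nor filtered, in the layout of STAR's gene counts, and the submitters' processing notes name CASAVA 1.4, STAR 2.7.10 and hg19. Such counts hold pairs that map uniquely and overlap a single gene. Counts of the reverse strand were used. IDs were matched to GENCODE 44 on GRCh37, and 1.75% to 2.61% of the counts lay on unmatched IDs and were left out. edgeR 4.0.16 in R 4.3.3 was run with TMM, filterByExpr on every biotype and a model of 6 group means, with calls at a Benjamini-Hochberg adjusted p of at most 0.05 and a 1.2-fold change or more. It was tested on simulated data. Alternatives were RLE size factors, DESeq2 1.42.0, a replicate block, 2 groups at a time, both strands, 3 other filters, no fold minimum and each library left out. Values in every library are given for members called in at least 2 comparisons, and up to 5 genes are named per other list, those with the largest change. Promoter sequences come from a RefSeq table, from which windows of 24 members were used. Chromosome 8, where RB1CC1 lies, was left out for the members but not for the 34943 windows.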

Additional observations from a re-analysis of the deposited data

Results flagged for a closer look

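The opposite strand of SLC22A18, which the comparisons above do not use, varied between groups. It was at 1.71 CPM with siCHD4 (84 counts in both libraries together), 1.02 CPM with siGATAD2A (50 counts), 0.843 CPM with siCARM1 (40 counts) and 0.651 CPM with siKDM1A (31 counts), against 0.413 CPM with siCTL (17 counts) and 0.391 CPM with siHDAC2 (20 counts). In siCHD4 and siGATAD2A both libraries were more than 1.5 times as high as either siCTL library. SLC22A18AS faces 4.34% of the exonic bases of SLC22A18 on that strand.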

How the results depend on the processing

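The 44 called changes of the imprinted genes were recomputed under those of 20 other settings that applied to them. None reversed, 486 values stayed called and 26 fell under a threshold, in the genes for which this is given above. A left-out library was read only in comparisons that use it, and a gene not tested in a setting was not counted there. The filter on mean CPM kept 19 members and that on coding genes by FPKM kept 17. Neither filter could check the calls of IGF2, MKRN3 and HYMAI, and the coding filter could not check those of H19 and KCNQ1OT1. Of the 37 called values of the other named genes, counted in the same way, none reversed, 420 stayed called and 18 fell under a threshold, IGFBP7 with siCARM1 among them. With no fold minimum the members lower with siCHD4 were 5, those lower with siGATAD2A 7 and those higher with siKDM1A 6, as fewer criteria apply. With both strands counted together, 5 were lower with siGATAD2A, and the cause was not tested. With the replicate block no called change was lost, 5, 9, 6, 6 and 4 members were higher and 3 lower in each, and pair differences numbered 86 in place of 84. The replicate numbers do not pair the samples, since deviations of same-numbered libraries correlated at -0.0408 to 0.0379 over 15 pairs of groups. With each library left out in turn, members higher numbered 4 to 5 with siCARM1, 8 to 9 with siCHD4, 3 to 7 with siHDAC2, 5 to 6 with siGATAD2A and 3 to 4 with siKDM1A, and members lower 3 to 3, 3 to 4, 2 to 3, 2 to 4 and 3 to 3. Those that differed among knockdowns numbered 18 to 20, and pair differences 77 to 87. A group left with 1 library is assumed to vary like the others. Genes under about 20 counts per library, IGF2, MKRN3, HYMAI and MAGEL2, are limited by depth.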

Other observations

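Other imprinted genes, or genes of imprinted domains, were read from a list of 72, of which 68 were in the annotation and 42 were tested. With siCHD4, 14 were higher and 9 lower, against 20.4% and 19.8% of all genes tested. The counts were 10 and 3 with siKDM1A (11.3% and 9.48% of all genes), 9 and 7 with siGATAD2A (12.7% and 14.4%), 6 and 1 with siCARM1 (12% and 11%) and 5 and 2 with siHDAC2 (8.64% and 7.73%), with medians between -0.06 and 0.15. PAX8-AS1, a non-coding RNA, rose by 4.26 ± 0.30 on the log2 scale with siCHD4, from 21 counts in the siCTL libraries together to 472, and by 1.32 ± 0.41 with siCARM1. The latter call was lost with DESeq2 (adjusted p = 0.069), with both strands counted together (adjusted p = 0.083), without siCTL replicate 1 (adjusted p = 0.093) and without siCARM1 replicate 2 (adjusted p = 0.14). CPA4, a carboxypeptidase of the MEST region, was higher with siCHD4, at 2.09 ± 0.19, and siKDM1A, at 1.45 ± 0.20, and lower with siGATAD2A, at -0.66 ± 0.25, a call lost with DESeq2 and on leaving out any of the 4 libraries compared (adjusted p = 0.072 to 0.14). KCNK9, a potassium channel, rose by 2.54 ± 0.47 with siCHD4, from 15 counts to 102. ANO1, a chloride channel, was lower with siCHD4, at -2.16 ± 0.29, and siGATAD2A, at -0.82 ± 0.24, the latter lost without siCTL replicate 1 (adjusted p = 0.067) and without siGATAD2A replicate 1 (adjusted p = 0.053). ERAP2, an aminopeptidase, was lower with siGATAD2A, at -1.80 ± 0.06, at -0.29 ± 0.06 with siCHD4 and at -0.28 ± 0.06 with siKDM1A. The last missed the fold minimum without siKDM1A replicate 1, at -0.21, and among coding genes with an FPKM larger than 0.5, at -0.25.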
